A study of Homo sapiens with 12 samples.

Results

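The respiratory chain is built from subunits of 2 genomes, and the genes described here are the ones the nucleus contributes. They were chosen by name: symbols beginning with NDUFA, NDUFB, NDUFC, NDUFS, NDUFV, UQCR, COX4I, COX5, COX6, COX7, COX8, ATP5F1, ATP5M or ATP5P, together with SDHA, SDHB, SDHC, SDHD and CYC1. Of 22379 gene rows, 98 carried such a name, and the 88 with an average above or at 10 across the 6 untreated libraries form the set. They comprised 6 core subunits, 30 accessory subunits and 8 assembly factors of complex I, 4 genes of complex II, 9 of complex III, 12 of complex IV, 17 of complex V and 2 readthrough transcripts that join a subunit gene to its neighbour.

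Complexes I to IV pass electrons from NADH and succinate to oxygen and, except for complex II, pump protons across the inner mitochondrial membrane, and complex V uses the returning protons to make ATP. Mitochondrial DNA encodes cytochrome b of complex III, the catalytic subunits of complex IV and parts of complexes I and V, whereas complex II is entirely nuclear. The nuclear mRNAs are made by RNA polymerase II, exported through nuclear pores, translated in the cytosol and imported as proteins, and in most cell types they are abundant and long-lived.

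PolyA RNA was sequenced from U2OS cells, an osteosarcoma line, in 6 groups of 2 libraries. The cells carried a nontargeting CRISPR control (NONT) or a CRISPR knockout of NUP93, a nuclear pore component (NUP93-KO), or of EXOSC5, part of the 3′ to 5′ RNA-degrading exosome (EXOSC5-KO). Each was left untreated or given 1 µM triptolide, which blocks initiation by RNA polymerase II, for 8 h. All groups, controls included, went through transient transfection and puromycin selection. The knockouts are thus selected pools and not clones, and cells that kept an intact gene may remain. The methods of the study give shorter selection and expansion times for NUP93 and EXOSC5 than for the other constructs, among which the control is listed. As described, handling times therefore differ between NONT and both knockouts, and their part in any difference from NONT cannot be told apart. ERCC spike-in RNA was added in proportion to counted cells, and the values used here are gene counts divided by size factors from that spike-in, so that they follow mRNA per cell. Nothing in the labels says that the 2 libraries of a group came from separate cultures, so that p-values measure only the spread between these libraries. In a pool of cells, fewer cells that hold an mRNA and less of it per cell cannot be told apart, and an error in a cell count moves every gene of a library together.

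Depth, estimated from the most common low value taken as 1 read, was about 8.60 M to 11.96 M reads. The largest disagreement between replicates was in untreated NONT, where replicate 1 lay 0.49 below replicate 2 on the log2 scale as the median over the 88 genes, and 0.51 below over all 13811 genes tested. This gap touches each comparison with NONT below. NUP93 mRNA had values of 1753 and 2489 before and 1007 and 899 after triptolide in NONT, 1395 and 1432 before and 801 and 1019 after triptolide in NUP93-KO, and 1805 and 1618 before and 1153 and 1231 after triptolide in EXOSC5-KO. EXOSC5 mRNA had values of 299 and 481 before and 266 and 208 after triptolide in NONT, 376 and 376 before and 289 and 323 after triptolide in NUP93-KO, and 216 and 148 before and 75.2 and 102 after triptolide in EXOSC5-KO. In untreated cells each targeted mRNA was thus lower in its own knockout than in NONT, with no overlap between the libraries, although an edited gene can still be transcribed. Of 10 mesenchymal and osteogenic markers 9 passed the minimum, with TWIST1 the exception, and their summed value was 53695 to 176519 per library. The shorter list of 6 markers of other cell types summed to 38.5 to 126. Of these 6, the epithelial markers EPCAM and CDH1 passed the minimum, whereas PTPRC, CD3E, PECAM1 and KRT5 did not.

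Many respiratory genes share promoter elements bound by NRF1, by ETS factors such as GABP, and by YY1. RefSeq promoter windows of 300 bases (GRCh38.p14, 250 before the start site and 50 from it on) were found for 73 of the 88 genes. The NRF1 letters GCATGCGC stood in 15 of these windows (20.5%), against 5.56% of the 10497 windows of tested genes and 3.27% of all 27305 windows, and the full palindrome, with GC added at its 5′ end, in 5 (6.85%), against 2.31% and 1.36%. The ETS letters CCGGAAGT stood in 10 (13.7%), against 8.78% and 4.44%, and the YY1 letters AAGATGGC in 11 (15.1%), against 5.36% and 3.03%. Both strands were searched, and apart from the NRF1 pair no motif contains another. The palindrome, the ETS or the YY1 letters were present in 25 windows (34.2%), against 15.4% of tested genes and 8.30% of all windows. Stretches of 100 bases from 4 genes, chosen to show one promoter for each element or pair of elements, follow, with the matching letters in capitals and 5′ to 3′ along the gene, and their values are given with their complexes. SDHD, an anchor subunit of complex II, held an NRF1 palindrome and an ETS match on the opposite strand (chr11:112086723-112086822, + strand). ATP5F1C, the gamma subunit of ATP synthase, held an NRF1 palindrome just before its start site (chr10:7788087-7788186, + strand). COX5B, a subunit of cytochrome c oxidase, held 2 ETS matches (chr2:97645972-97646071, + strand). ATP5PF, coupling factor 6 of ATP synthase, held a YY1 match (chr21:25735065-25735164, − strand). Upstream of the printed stretches, the windows of COX5B and ATP5PF also held the NRF1 letters GCATGCGC, on the opposite strand in ATP5PF. These 2 promoters are thus not examples of a single element. A match is a description of letters and says nothing of binding in these cells.
SDHD: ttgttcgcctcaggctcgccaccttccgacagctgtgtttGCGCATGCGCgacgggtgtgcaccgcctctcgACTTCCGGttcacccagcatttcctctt
ATP5F1C: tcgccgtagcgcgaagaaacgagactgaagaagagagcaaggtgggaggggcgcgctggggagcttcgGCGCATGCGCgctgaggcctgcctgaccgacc
COX5B: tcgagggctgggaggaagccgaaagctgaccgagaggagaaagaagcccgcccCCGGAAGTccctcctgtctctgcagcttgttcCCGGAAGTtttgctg
ATP5PF: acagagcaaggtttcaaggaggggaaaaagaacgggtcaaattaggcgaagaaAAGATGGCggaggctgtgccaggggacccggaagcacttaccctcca

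Before treatment the most abundant mRNA of the set per kb of transcript was COX4I1, subunit 4 of cytochrome c oxidase, at a mean of 6657 normalised units per kb over the 6 untreated libraries (range 5511 to 7263). NDUFB9 (5578 per kb), an accessory subunit of complex I, and ATP5F1B (5327 per kb), the catalytic beta subunit of ATP synthase, followed. The ranges of these 3 genes over libraries overlapped, but COX4I1 was the highest of the 88 within each of the 6 untreated libraries. NDUFB9 was above ATP5F1B in 5 of the 6, so that the order of these 2 is not resolved. Per kb of coding sequence COX4I1 ranked 4. Among the matching names below the minimum, COX4I2, COX6A2, COX7A1, COX7B2 and COX8C, which are tissue-restricted isoforms, were listed at 0 in all 6 untreated libraries, and NDUFA4L2, COX6B2, ATP5MGL and UQCRHL had untreated means of 0.649 to 2.44. The nearest genes inside the minimum were NDUFA3 at 10.3 and COX7A2 at 73.5, and whether reads of these 2 genes were assigned to other rows was not tested. The row of NDUFS1 was identical in every library to that of an identifier with no symbol, so that its level is uncertain.

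How far the set fell when transcription was blocked was asked first. The summed value of the 88 genes was 113191 and 160945 before and 78981 and 68100.0 after triptolide in NONT, 124053 and 140157 before and 111216 and 121120.0 after triptolide in NUP93-KO, and 140927 and 133091 before and 106834 and 107189 after triptolide in EXOSC5-KO. Treated sums were under untreated sums in each genotype without overlap, and the gap was narrowest in NUP93-KO. The treated sum as a multiple of the untreated sum came to 0.537 in NONT (0.423 to 0.698 over the 4 pairings of libraries). It came to 0.879 in NUP93-KO (0.794 to 0.976), and EXOSC5-KO gave 0.781 (0.758 to 0.805). Over all genes the corresponding ratios were 0.390, 0.674 and 0.577.

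The set took a larger part of the mRNA pool after triptolide in each genotype. Its share of all gene values, which does not depend on the spike-in, was, in percent, 0.9999 and 0.979 before and 1.33 and 1.39 after triptolide in NONT, 1.03 and 1.06 before and 1.35 and 1.38 after triptolide in NUP93-KO, and 0.978 and 0.993 before and 1.33 and 1.33 after triptolide in EXOSC5-KO. All 6 treated libraries lay above all 6 untreated ones, and the 3 genotypes were close to each other both before and after the drug. Leaving out the mitochondrially encoded mRNAs moved the share by little, to between 0.985% and 1.06% before and between 1.34% and 1.41% after.

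**Figure D1:**
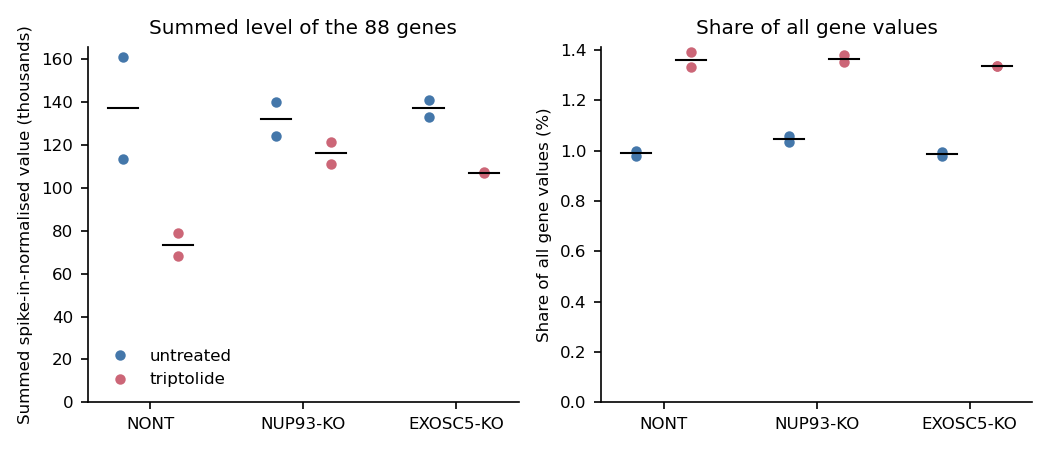
Summed spike-in-normalised value of the 88 genes (left) and their share of all gene values in percent (right) for each of the 12 libraries, by genotype, with points for libraries and bars for group means. The sums fell least in NUP93-KO, whereas the share rose from 0.978 to 1.06% in untreated libraries to 1.33 to 1.39% in treated ones.

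Gene by gene on the spike-in scale, 87 of the 88 were lower after triptolide in NONT (limma on log2(value + 1), Benjamini-Hochberg adjusted p under 0.05 over all genes tested), where 90% of all tested genes were. In NUP93-KO 10 were lower, against 55.1% of all genes, and in EXOSC5-KO 18 were, against 64.3%. None of the 88 was higher on this scale in any genotype (limma), and none was at an unadjusted p under 0.05, where 0.0507%, 0.138% and 0.0796% of all tested genes were higher at the adjusted threshold. Without the variance trend 1 gene, NDUFA3, was called higher in NUP93-KO (1.00 ± 0.34, limma adjusted p = 0.0344). The set had a median log2 response of −0.87 in NONT (−1.23 to −0.49 over the pairings), of −0.17 with NUP93-KO (−0.33 to −0.02) and of −0.34 with EXOSC5-KO (−0.42 to −0.29). All tested genes had medians of −1.62, −0.92 and −1.08 in that order. The signs hold on the spike-in scale and when libraries are set to the same mitochondrial mRNA sum, and turn positive when each library is scaled to the same total or by median of ratios. The smaller loss in the knockouts is seen on the spike-in scale, whereas with the same mitochondrial sum the medians were −0.51, −0.47 and −0.43, close to each other, and 62, 57 and 49 of the 88 were lower (81.2%, 76.5% and 75.1% of all tested genes). Among the genes given a response in NONT below, those of NDUFV3, NDUFAF4, UQCRFS1 and the readthrough transcripts stayed negative on both of these scales, that of SDHA turned positive by median of ratios only, and the other called ones turned positive on both. The count of 10 in NUP93-KO became 21 without either untreated NONT library, and the count of 18 in EXOSC5-KO became 41 without either of them and 7 to 9 without any one EXOSC5-KO library.

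The middle of the responses within the set covered a narrow range. The set had interquartile ranges for NONT, NUP93-KO and EXOSC5-KO of 0.28, 0.26 and 0.24, against 1.60, 1.58 and 1.48 over all tested genes. Apart from the readthrough transcripts, single genes in NONT ran from −3.54 to 0.44. The set had a median untreated value of 1152 against 366 over tested genes with annotation, and what this adds to the contrast in spread was not tested. Responses above the median of all tested genes were seen for 82, 80 and 82 of the 88 genes in NONT, NUP93-KO and EXOSC5-KO. The treated pair of libraries was wholly under the untreated pair for 86 of the 88 in NONT (94.8% of all tested genes), 45 with NUP93-KO (79.1%) and 78 with EXOSC5-KO (88%). The exceptions in NONT were NDUFA3 and NDUFAF1.

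**Figure D2:**
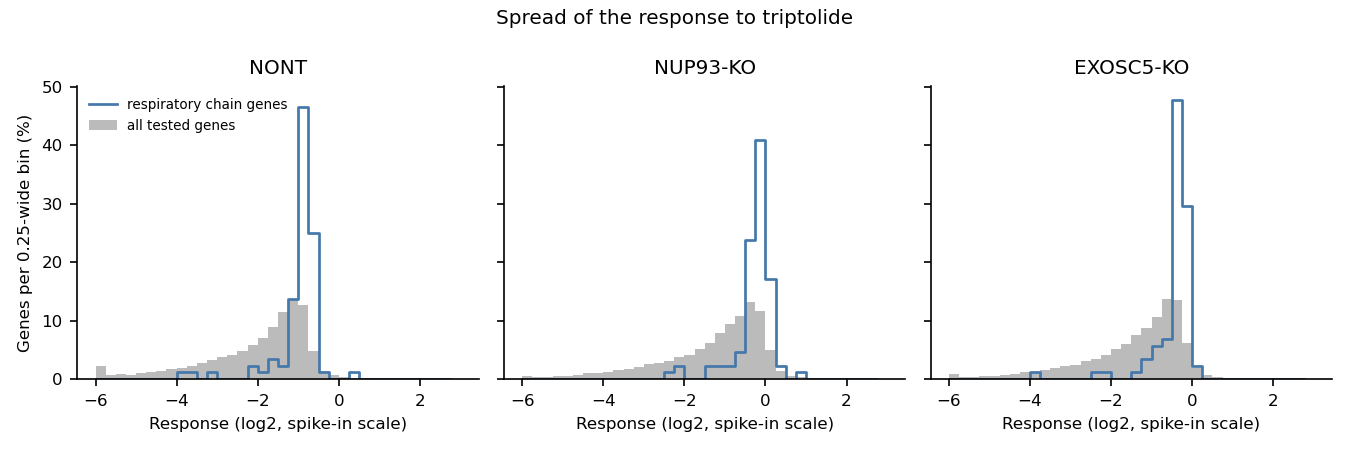
Percent of genes per bin of the log2 response to triptolide on the spike-in scale, for all 13811 tested genes (grey) and for the 88 respiratory chain genes (blue line), by genotype, with responses beyond the axis added to the end bins. The blue line forms a narrow peak to the right of the grey distribution in each genotype, with interquartile ranges of 0.28, 0.26 and 0.24.

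With each library centred on its own median gene, which removes the spike-in and the cell count, 82 of the 88 were higher after triptolide in NONT and 3 lower (45.3% and 20.1% of all tested genes), 80 were higher and 2 lower in NUP93-KO (43.3% and 20.7%), and 82 were higher and 3 lower in EXOSC5-KO (43.3% and 19.8%). All tested genes had median responses of 0.55, 0.46 and 0.47 on this centred scale and the set had 1.297, 1.217 and 1.206, so that part of each count is shared by genes at large. Scaling by median of ratios, an alternative added after the data were seen, gave 76 higher and 4 lower in NONT (27.2% and 30.3% of all tested genes), 78 and 4 in NUP93-KO (26.7% and 29.7%), and 74 and 3 in EXOSC5-KO (26.2% and 28.7%).

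By complex, the genes of cytochrome c oxidase and ATP synthase had the medians nearest 0 in NONT and NUP93-KO. In NONT the class medians on the spike-in scale were −0.80 for complex IV, −0.81 for complex V, −0.86 for accessory and −0.98 for core subunits of complex I, −0.88 for complex III, −0.99 for complex II and −1.30 for the complex I assembly factors. The assembly factors, which help to build complex I but are not part of it, also had the lowest median among these in NUP93-KO (−0.80) and EXOSC5-KO (−0.82). In NUP93-KO the medians of complexes IV and V were −0.08 and −0.06, and in EXOSC5-KO they were −0.25 and −0.32, with complex III at −0.30 and the accessory subunits at −0.32. The readthrough transcripts lay lower still, at −3.04, −1.70 and −2.72. Differences between classes were not tested, and genes of a class share libraries.

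**Figure D3:**
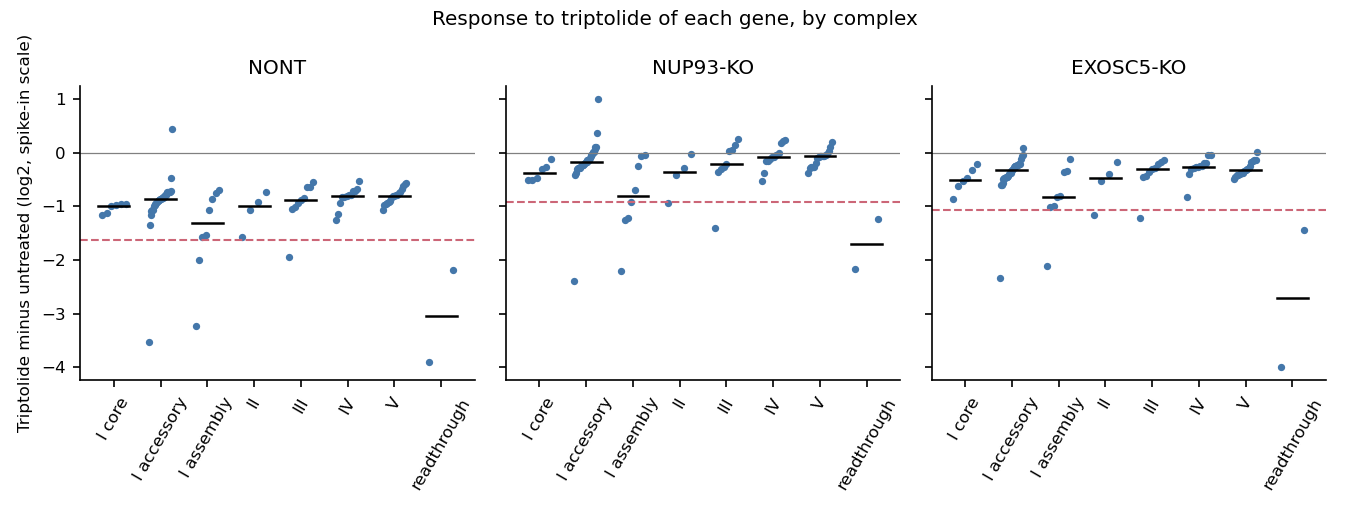
Log2 response to triptolide of each of the 88 genes on the spike-in scale, by complex and genotype, with points for genes, black bars for class medians, a grey line at 0 and a dashed line at the median of all tested genes. In NONT complexes IV and V have class medians of −0.80 and −0.81, and single genes of complex I and III fall far below their class.

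Complex I carries the flavin and iron-sulphur clusters that take electrons from NADH in its core subunits. NDUFV1, which binds the flavin, had the highest untreated values among the core subunits, not corrected for length. Its values were 1414 and 2025 before and 1018 and 757 after triptolide in NONT, 1505 and 1836 before and 1451 and 1639 after triptolide in NUP93-KO, and 1791 and 1603 before and 1457 and 1470.3 after triptolide in EXOSC5-KO. Its treated values overlapped the untreated ones in NUP93-KO and lay below them in NONT and EXOSC5-KO. The core subunits spanned a narrow range in NONT, from −0.95 ± 0.24 (adjusted p = 0.00141) for NDUFS1, an iron-sulphur subunit, to −1.16 ± 0.19 (adjusted p = 4.14e-05) for NDUFS3, as log2 response ± SE from limma. NDUFS3 and NDUFV2 were the 2 core subunits that were also lower in both knockouts.

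NDUFV3, a small accessory subunit beside the flavin site, had the largest loss of the complex in each genotype. Its values were 272 and 495 before and 27.7 and 33.99 after triptolide in NONT, 362 and 319.9 before and 58.2 and 70.8 after triptolide in NUP93-KO, and 336 and 361 before and 74.3 and 63.04 after triptolide in EXOSC5-KO. Every treated library lay below every untreated one, with 8.04% of the untreated level left in NONT. The log2 response was −3.54 ± 0.31 (adjusted p = 2.99e-08) in NONT, −2.39 ± 0.31 (adjusted p = 5.67e-06) in NUP93-KO and −2.33 ± 0.31 (adjusted p = 6.61e-06) in EXOSC5-KO, and it fell on the centred scale too (−1.37 ± 0.24, adjusted p = 0.000441 in NONT). The ratio of NDUFV3 to NDUFV1, its neighbour in the complex, was 0.193 and 0.244 before and 0.0273 and 0.0449 after triptolide in NONT, 0.241 and 0.174 before and 0.0401 and 0.0432 after triptolide in NUP93-KO, and 0.188 and 0.225 before and 0.05097 and 0.0429 after triptolide in EXOSC5-KO, so that it dropped in each genotype whatever the scaling.

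Of the 30 accessory subunits 29 were lower in NONT, 1 with NUP93-KO and 4 with EXOSC5-KO (90%, 55.1% and 64.3% of all tested genes). NDUFB9, with the highest untreated values among them, had values of 3113 and 4503 before and 2219.8 and 1886 after triptolide in NONT, 3676 and 4044 before and 3078 and 3285 after triptolide in NUP93-KO, and 4020.0 and 3769.9 before and 2913 and 3032 after triptolide in EXOSC5-KO. Its treated values lay below the untreated ones in each genotype. NDUFB2, whose loss in NONT was the smallest of those called in the class, had values of 547 and 833 before and 517 and 455 after triptolide in NONT, 643 and 666 before and 704 and 712 after triptolide in NUP93-KO, and 789 and 724 before and 706 and 763 after triptolide in EXOSC5-KO, and its log2 response of −0.48 ± 0.21 (adjusted p = 0.0423) in NONT lost its call without the variance trend, with the replicate block, with the same mitochondrial sum and without any single library except untreated NONT replicate 1, and its sign turned positive on the same-total and median-of-ratios scales. NDUFA3 was the gene that did not pass the test in NONT (0.44 ± 0.60, adjusted p = 0.484), and its values lay between 6.83 and 21.4 in all libraries. Its response in NUP93-KO, 1.00 ± 0.60 (adjusted p = 0.17), and that of NDUFA7, 0.38 ± 0.27 (adjusted p = 0.252), were the highest there and did not pass either.

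All 8 assembly factors were lower in NONT, 3 with NUP93-KO and 4 with EXOSC5-KO, where 90%, 55.1% and 64.3% of all tested genes were. NDUFAF8 had values of 854 and 1138 before and 676 and 546 after triptolide in NONT, 978 and 1074 before and 926 and 1076 after triptolide in NUP93-KO, and 1122 and 993 before and 974 and 971 after triptolide in EXOSC5-KO, and its response in NONT was −0.70 ± 0.20 (adjusted p = 0.00376). NDUFAF4 had values of 197 and 247 before and 26.8 and 19.1 after triptolide in NONT, 197 and 220.4 before and 42.8 and 46.6 after triptolide in NUP93-KO, and 232 and 216 before and 58.8 and 43.98 after triptolide in EXOSC5-KO. All treated libraries lay below all untreated ones for NDUFAF4, with 10.4% left in NONT, 21.4% with NUP93-KO and 22.9% with EXOSC5-KO. Its log2 responses were −3.23 ± 0.32 (adjusted p = 1.18e-07), −2.20 ± 0.32 (adjusted p = 1.79e-05) and −2.12 ± 0.32 (adjusted p = 2.34e-05), and on the centred scale it fell by 1.06 in NONT (adjusted p = 0.00122). NDUFAF5 and NDUFAF7, both methyltransferase family members, were likewise lower in all 3 genotypes on the spike-in scale.

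Complex II oxidises succinate and has 4 subunits, the flavoprotein SDHA, the iron-sulphur protein SDHB and the membrane anchors SDHC and SDHD. SDHA had values of 1254 and 2108 before and 618 and 483 after triptolide in NONT, 1427 and 1541 before and 750.3 and 794 after triptolide in NUP93-KO, and 1386 and 1201 before and 540.3 and 614 after triptolide in EXOSC5-KO. SDHB had values of 1058 and 1691 before and 756 and 658 after triptolide in NONT, 1286 and 1454 before and 1100.3 and 1147 after triptolide in NUP93-KO, and 1409.8 and 1364 before and 1041 and 1059 after triptolide in EXOSC5-KO. In both, each treated library lay below each untreated library of its genotype. SDHC had values of 1711 and 2375 before and 1260.0 and 1166 after triptolide in NONT, 1722 and 1858 before and 1823 and 1726 after triptolide in NUP93-KO, and 1880.4 and 2132 before and 1840.2 and 1707 after triptolide in EXOSC5-KO, and SDHD, whose promoter is shown above, had 1657 and 2219 before and 981 and 855 after triptolide in NONT, 1766 and 1776 before and 1309 and 1348 after triptolide in NUP93-KO, and 1693 and 1687 before and 1143 and 1198 after triptolide in EXOSC5-KO. SDHC overlapped before and after triptolide in NUP93-KO and not in NONT or EXOSC5-KO, whereas SDHD did not overlap in any genotype.

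The log2 responses in NONT were −1.57 ± 0.23 (adjusted p = 9.63e-06) for SDHA, −0.92 ± 0.21 (adjusted p = 0.000668) for SDHB, −0.73 ± 0.19 (adjusted p = 0.00171) for SDHC and −1.07 ± 0.18 (adjusted p = 5.48e-05) for SDHD. SDHA was also lower in NUP93-KO (−0.94 ± 0.23, adjusted p = 0.00215) and EXOSC5-KO (−1.16 ± 0.23, adjusted p = 0.000324). Within libraries, the ratio of SDHA to SDHC was 0.733 and 0.887 before and 0.491 and 0.414 after triptolide in NONT, 0.829 and 0.829 before and 0.411 and 0.4599 after triptolide in NUP93-KO, and 0.737 and 0.563 before and 0.294 and 0.359 after triptolide in EXOSC5-KO. Each treated ratio was below each untreated one, so that the flavoprotein mRNA lost more than that of the anchor SDHC in every genotype whatever the scaling. SDHA and SDHC had the largest and the smallest loss of complex II in NONT, so that the direction there follows from the choice of the pair. SDHA has near-identical pseudogene copies, and how their reads were divided was not examined.

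**Figure D4:**
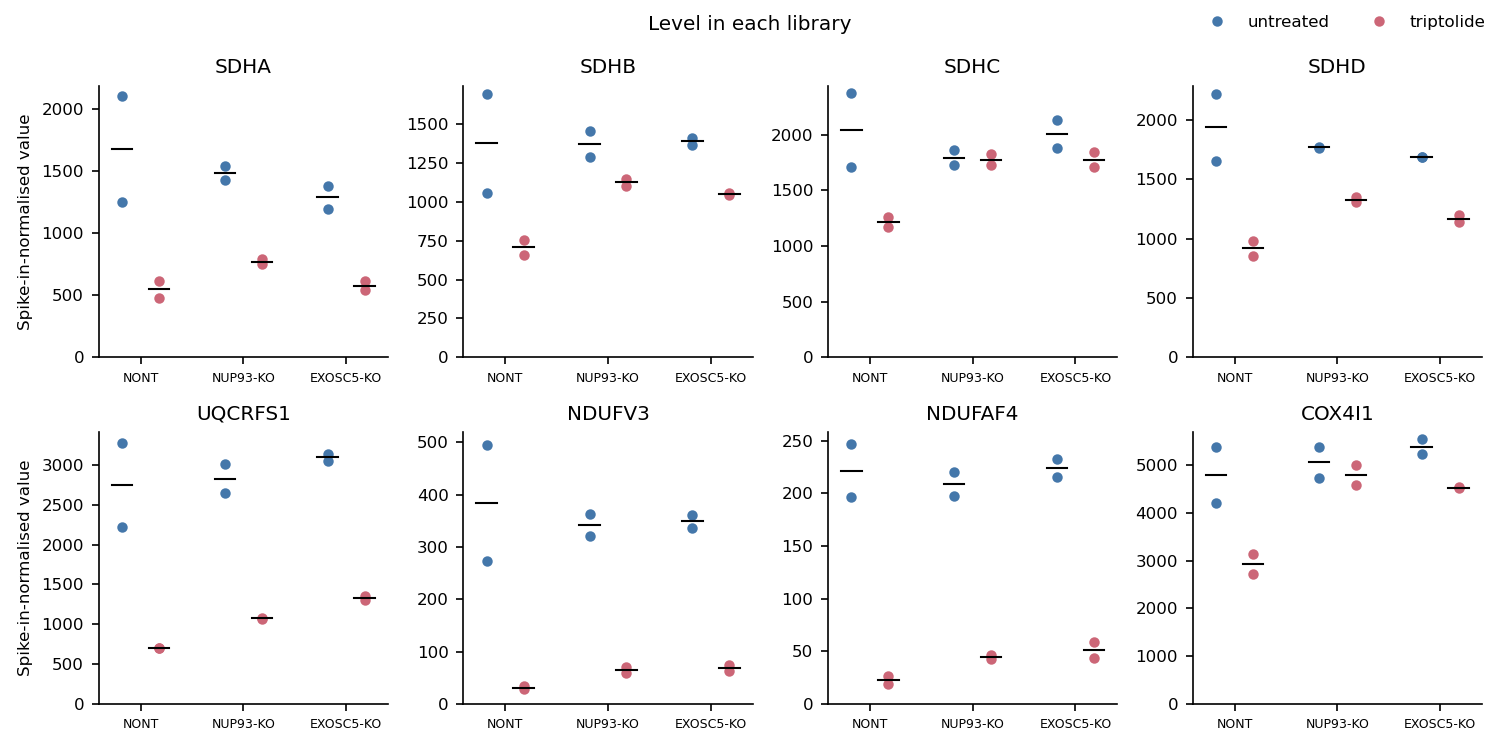
Spike-in-normalised value in each library for the 4 complex II genes and for UQCRFS1, NDUFV3, NDUFAF4 and COX4I1, with points for the 2 libraries of a group and bars for their mean. SDHA, UQCRFS1, NDUFV3 and NDUFAF4 fall in each genotype, whereas SDHC and COX4I1 in NUP93-KO overlap before and after triptolide.

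Complex III passes electrons from ubiquinol to cytochrome c. CYC1, cytochrome c1, had the highest untreated values of its class, not corrected for length, with 4642 and 6514 before and 3157 and 2596 after triptolide in NONT, 5187 and 5314 before and 4128 and 4432 after triptolide in NUP93-KO, and 5497 and 4923 before and 4091 and 4049.7 after triptolide in EXOSC5-KO. UQCRFS1, the Rieske iron-sulphur protein, had values of 2221 and 3280.2 before and 703 and 704 after triptolide in NONT, 2643 and 3013 before and 1064 and 1082 after triptolide in NUP93-KO, and 3046 and 3145 before and 1355 and 1311 after triptolide in EXOSC5-KO. The untreated UQCRFS1 libraries and the treated ones did not overlap, and neither did those of CYC1 within a genotype. The log2 response of UQCRFS1 was −1.94 ± 0.19 (adjusted p = 1.3e-07) in NONT, −1.39 ± 0.19 (adjusted p = 1.11e-05) in NUP93-KO and −1.21 ± 0.19 (adjusted p = 4.07e-05) in EXOSC5-KO, the largest in its class in each. The ratio of UQCRFS1 to CYC1 was 0.478 and 0.504 before and 0.223 and 0.271 after triptolide in NONT, 0.509 and 0.567 before and 0.258 and 0.244 after triptolide in NUP93-KO, and 0.554 and 0.639 before and 0.331 and 0.324 after triptolide in EXOSC5-KO, with no overlap between treated and untreated libraries. UQCRB, which binds ubiquinone, had the smallest response of the class in NONT (−0.54 ± 0.21, adjusted p = 0.0231).

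Complex IV reduces oxygen. COX4I1 had values of 4205 and 5385 before and 3138 and 2717 after triptolide in NONT, 4738 and 5374 before and 4579 and 4994 after triptolide in NUP93-KO, and 5541 and 5233 before and 4533 and 4523 after triptolide in EXOSC5-KO. Its treated libraries lay below the untreated ones in NONT and EXOSC5-KO and overlapped them in NUP93-KO. Where a subunit has a ubiquitous and a restricted isoform, the ubiquitous one was above the minimum and the other was not. COX6A1, COX6B1, COX7B and COX8A had untreated means of 2638, 2070.3, 1199.7 and 2381 normalised units. COX5B, whose promoter is shown above, had values of 797 and 1085 before and 565 and 513 after triptolide in NONT, 851 and 992 before and 821 and 924 after triptolide in NUP93-KO, and 1012 and 973 before and 825 and 832 after triptolide in EXOSC5-KO. NDUFA4, now assigned to complex IV, had values of 1497 and 2558 before and 1307 and 1139 after triptolide in NONT, 1805 and 2189.6 before and 1876 and 2697 after triptolide in NUP93-KO, and 2054 and 1835 before and 1929.8 and 1866 after triptolide in EXOSC5-KO. COX6C had the smallest response in NONT (−0.53 ± 0.22, adjusted p = 0.0287) and COX7A2 the largest (−1.25 ± 0.45, adjusted p = 0.015), the latter on values of 29.6 to 118. COX7A2L, a factor in supercomplex assembly, was the single gene of the class that was lower in both knockouts.

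Complex V makes ATP through its catalytic head and a rotor in the membrane. ATP5F1B had values of 7930.4 and 11222 before and 5826 and 5082 after triptolide in NONT, 8704 and 9882 before and 8201 and 9221 after triptolide in NUP93-KO, and 9636 and 8846 before and 7422 and 7551 after triptolide in EXOSC5-KO. Its treated libraries lay below the untreated ones in NONT and EXOSC5-KO and overlapped them in NUP93-KO. None of the 17 genes passed the limma test in NUP93-KO, with 0 at an unadjusted p under 0.05, 2 did in EXOSC5-KO (ATP5F1A, the alpha subunit, and ATP5MC3), and all did in NONT, where 55.1%, 64.3% and 90% of all tested genes were lower in that order. The 3 genes for the identical c subunit of the rotor had log2 responses in NONT of −0.56 ± 0.20 (adjusted p = 0.0144) for ATP5MC1, −0.94 ± 0.20 (adjusted p = 0.000332) for ATP5MC2 and −0.92 ± 0.19 (adjusted p = 0.000238) for ATP5MC3. The ratio of ATP5MC1 to ATP5MC3 was 0.262 and 0.251 before and 0.327 and 0.329 after triptolide in NONT, 0.263 and 0.281 before and 0.329 and 0.304 after triptolide in NUP93-KO, and 0.338 and 0.276 before and 0.378 and 0.376 after triptolide in EXOSC5-KO, and it was higher in both treated than in both untreated libraries of each genotype. ATP5MC1 had the smallest loss of the class in NONT, so that the direction of this ratio there follows from its choice. ATP5F1D, the delta subunit, had the largest loss of the class in NONT (−1.07 ± 0.22, adjusted p = 0.000282). ATP5F1C and ATP5PF, whose promoters are shown above, had values of 1831 and 2533 before and 1331 and 1082 after triptolide in NONT, 1784 and 2173 before and 1727 and 2044 after triptolide in NUP93-KO, and 2199 and 1956 before and 1644 and 1562 after triptolide in EXOSC5-KO for the former and 1026 and 1357 before and 773 and 698 after triptolide in NONT, 1073 and 1181 before and 1098 and 1125 after triptolide in NUP93-KO, and 1209 and 1166 before and 1038 and 1062 after triptolide in EXOSC5-KO for the latter.

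The readthrough transcript ATP5MF-PTCD1 had values of 56.9 and 114 before and 4.86 and 3.998 after triptolide in NONT, 77.2 and 79.2 before and 11.4 and 24.1 after triptolide in NUP93-KO, and 108 and 109 before and 5.93 and 5.76 after triptolide in EXOSC5-KO. It shares exons with ATP5MF, so that the division of reads between them is uncertain, and its fitted responses of −3.91 ± 0.50 (adjusted p = 2.07e-06) in NONT, −2.16 ± 0.50 (adjusted p = 0.00135) in NUP93-KO and −4.00 ± 0.50 (adjusted p = 3.05e-06) in EXOSC5-KO rest on few treated reads. On the centred scale it fell by 1.75 in NONT (adjusted p = 0.00238). NDUFC2-KCTD14, with 54.2 and 167 before and 30.01 and 13.6 after triptolide in NONT, 82.2 and 183 before and 31.2 and 85.5 after triptolide in NUP93-KO, and 69.6 and 78.8 before and 27.2 and 26.4 after triptolide in EXOSC5-KO, changed by −2.18 ± 0.58 (adjusted p = 0.00217) in NONT.

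Whether the loss differed between genotypes was tested by the difference of the responses. None of the 88 passed for NUP93-KO against NONT, EXOSC5-KO against NONT or EXOSC5-KO against NUP93-KO (limma adjusted p under 0.05, 0.775%, 0.333% and 0.0217% of all tested genes), with 66, 21 and 2 at an unadjusted p under 0.05 (41.3% and 23.1% of all tested genes higher and 3.09% lower in that order). Relative to NONT the set had median differences of 0.69 (NUP93-KO) and 0.53 (EXOSC5-KO), beside 0.74 and 0.57 over all tested genes, and these comparisons share the NONT libraries. Their size rests on the spike-in scale. The medians were −0.10 and −0.10 centred on the library median, −0.08 and −0.02 with each library scaled to the same total, −0.06 and −0.04 by median of ratios, and 0.03 and 0.07 with the same mitochondrial sum. Without untreated NONT replicate 1, 78 genes passed for NUP93-KO and 65 for EXOSC5-KO, with 51% and 38.2% of all tested genes higher in that fit, and without triptolide-treated NONT replicate 1, 9 passed for NUP93-KO, where 18% of all tested genes were higher. Centred on the library median, none of the 88 passed either difference from NONT, where 0.0217% and 0.0434% of all tested genes did, with 4 and 6 at an unadjusted p under 0.05 (9.72% and 10.4% of all tested genes).

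In NUP93-KO 3 genes, picked out after their values were seen, lay above both untreated libraries in both treated ones while falling in both in NONT, a pattern shown by 1.27% of all tested genes. NDUFB2, UQCRB and ATP5MK, a small subunit of ATP synthase, had log2 responses in NUP93-KO of 0.11 ± 0.21 (adjusted p = 0.674), 0.27 ± 0.21 (adjusted p = 0.295) and 0.20 ± 0.19 (adjusted p = 0.414). The differences from NONT were 0.59 ± 0.30 (adjusted p = 0.138), 0.80 ± 0.29 (adjusted p = 0.0781) and 0.78 ± 0.28 (adjusted p = 0.0745). None of these passed the test, and no gene of the set showed the pattern in EXOSC5-KO (0.405% of all tested genes).

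Whether the knockouts changed the set without drug was asked next. On the spike-in scale none of the 88 differed from NONT in either knockout (limma, 0.0217% and 0.521% of all tested genes), with 0 at an unadjusted p under 0.05 with NUP93-KO and 3 with EXOSC5-KO (4.2% and 8.49% of all tested genes), and the median differences were −0.04 and 0.02. Centred on the library median, none passed in NUP93-KO (limma, 0.898% of all tested genes), with 6 at an unadjusted p under 0.05 (10.7%), and 3 were lower in EXOSC5-KO (3.46% of all tested genes lower). UQCRC2, a core protein of complex III, had values of 1233 and 1783 before and 879 and 737 after triptolide in NONT, 1414 and 1421 before and 1246 and 1208 after triptolide in NUP93-KO, and 1025 and 1056 before and 873 and 1031 after triptolide in EXOSC5-KO, and both untreated EXOSC5-KO libraries lay below every other untreated library. It differed by −0.60 ± 0.10 (adjusted p = 0.00612) on the centred scale and by −0.51 ± 0.20 (adjusted p = 0.463) on the spike-in scale. SDHA (−0.42 ± 0.10, adjusted p = 0.0341) and NDUFB6, an accessory subunit of complex I (−0.34 ± 0.09, adjusted p = 0.0485), were the other two, and on the spike-in scale they differed by −0.33 ± 0.23 (adjusted p = 0.832) and −0.25 ± 0.21 (adjusted p = 0.896). The calls were lost for all 3 without untreated NONT replicate 2 or without untreated EXOSC5-KO replicate 1, and without any of the 4 NUP93-KO libraries 1 call was left.

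The genes of the set had shorter transcripts than the tested genes at large. In GENCODE release 44 the canonical transcripts had a median length of 830.5 bases against 3448 over all tested genes, a coding length of 429 bases against 1425, 4 exons against 9, and a GC content of 46.8% against 48.1%. The median 3′ UTR was 206 bases against 1378.5, and the letters ATTTA stood in the 3′ UTR of 47.7% of the set against 74.3% of all tested genes. A longer 3′ UTR has more places for these letters, and the shares were not corrected for length. Within the set the 42 genes with those letters had a median response in NONT of −0.89 and the 44 single genes without them −0.84, while over all tested genes the medians were −1.72 and −1.38.

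Genes that serve the chain without matching the naming rule were described from lists. Of 45 assembly factors and carriers outside the naming rule, 43 were lower after triptolide in NONT, 25 with NUP93-KO and 25 with EXOSC5-KO, against 90%, 55.1% and 64.3% of all tested genes. Their median responses were −1.41, −0.78 and −0.68 on the spike-in scale, whereas centred on the library median 9 were lower and 29 higher in NONT (20.1% and 45.3% of all tested genes). SDHAF1, which helps to load the iron-sulphur clusters of SDHB, had values of 165 and 295 before and 1.804 and 0.488 after triptolide in NONT, 242 and 205 before and 2.61 and 6.94 after triptolide in NUP93-KO, and 256 and 242 before and 6.56 and 1.65 after triptolide in EXOSC5-KO, with treated values of 0.488 to 6.94, while SDHB itself kept 51.5%, 82.01% and 75.7% of its level in the 3 genotypes.

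Of 14 transcriptional regulators of respiratory genes, 13 were lower in NONT and all 14 in each knockout (90%, 55.1% and 64.3% of all tested genes). Their medians were −2.44, −1.83 and −1.86 on the spike-in scale, and centred on the library median 6 were lower and 2 higher in NONT (20.1% and 45.3%). PPRC1, a coactivator of the PGC-1 family, had values of 799 and 1346 before and 33.6 and 14.9 after triptolide in NONT, 784 and 929 before and 33.2 and 21.9 after triptolide in NUP93-KO, and 1131 and 995 before and 26.3 and 31.3 after triptolide in EXOSC5-KO. TFAM, which packages mitochondrial DNA and takes part in its transcription, had values of 1617 and 2415 before and 706 and 609.7 after triptolide in NONT, 1848 and 1904 before and 1062 and 1115 after triptolide in NUP93-KO, and 2166 and 1877 before and 756 and 889 after triptolide in EXOSC5-KO. For PPRC1 and TFAM each treated library lay below each untreated library of its genotype.

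The 13 subunits encoded by mitochondrial DNA, transcribed by a polymerase that triptolide does not target, had median responses of −0.41, 0.28 and 0.05. Of these 5 were lower in NONT (90% of all tested genes) and 1 was higher in NUP93-KO (0.138%) on the spike-in scale, whereas centred on the library median 12 were higher in NONT (45.3%). The ratio of the 3 mitochondrially encoded subunits of complex IV to the nuclear genes of that complex was 1.49 and 1.78 before and 2.07 and 2.39 after triptolide in NONT, 1.72 and 1.39 before and 2.18 and 1.83 after triptolide in NUP93-KO, and 2.02 and 1.91 before and 2.47 and 2.74 after triptolide in EXOSC5-KO. It was higher in both treated than in both untreated libraries of each genotype, and its parts come from transcripts that polyA selection may capture unequally, which was not tested.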

How the data were processed

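PolyA RNA of 12 libraries, 2 in each of 6 groups, was sequenced. Per the labels and the methods of the study, the authors quantified reads with kallisto 0.46.1 on GRCh38 transcripts plus ERCC sequences, summed estimates per gene, divided them by DESeq2 size factors from the 92 ERCC rows and kept protein-coding genes. The deposited values are therefore a spike-in-normalised signal and not counts, and replicates were not pooled. Whole reads could not be recovered (at most 23.9% of low values fell within 0.01 of a whole multiple), so no count model was used.

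Genes were named from GENCODE release 44, which matched 19584 of 22379 identifiers. The 13811 genes with an untreated mean of at least 10 were tested on log2(value + 1) with limma 3.58.1 in R 4.3.3 (trend, 6 group means, all 12 libraries, two-sided, Benjamini-Hochberg). Such a fold understates the change of low genes. The same fit was made after subtracting each library's median log2 value. The limma fit was run on simulated data and checked for the response in NONT and for the untreated difference of NUP93-KO. The other contrasts, the centred scale and the other scalings were not checked in this way. Named genes were those with the highest untreated value and the smallest and largest loss in NONT in each class, the SDH genes, isoform sets, genes past a threshold between genotypes, the highest responses not past it, and the ends of each comparison list. Others were named after their values were seen. The members and lists were chosen with earlier results of these data known. Alternatives were other pseudocounts, minimums and scalings, no trend, a replicate block and leaving out each library.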

Additional observations from a re-analysis of the deposited data

How the results depend on the processing

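Scaling turned the sign of the responses, whereas the count of genes differing in response from NONT stayed 0 under each scaling and moved when single libraries were left out. With each library scaled to the same total, 4, 6 and 5 of the 88 genes were lower after triptolide in NONT, NUP93-KO and EXOSC5-KO and the median responses were 0.47, 0.40 and 0.45. By median of ratios, 4, 4 and 3 were lower and the medians were 0.78, 0.74 and 0.74. With the same mitochondrial sum, 62, 57 and 49 were lower in NONT, NUP93-KO and EXOSC5-KO, with medians of −0.51, −0.47 and −0.43 that lay close to each other, unlike those on the spike-in scale. In untreated EXOSC5-KO 2, 3 and 5 genes differed from NONT on these scales in that order. Without the mitochondrially encoded mRNAs the share in treated EXOSC5-KO was 1.35%.

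Responses in NONT that turned positive were, for the same total and then median of ratios, 0.39 and 0.70 for NDUFS1, 0.17 and 0.49 for NDUFS3, 0.86 and 1.17 for NDUFB2, 0.64 and 0.95 for NDUFAF8, 0.42 and 0.73 for SDHB, 0.61 and 0.92 for SDHC, 0.27 and 0.59 for SDHD, 0.80 and 1.11 for UQCRB, 0.81 and 1.12 for COX6C, 0.068 and 0.38 for COX7A2, 0.77 and 1.09 for ATP5MC1, 0.40 and 0.72 for ATP5MC2, 0.42 and 0.73 for ATP5MC3, and 0.27 and 0.58 for ATP5F1D. SDHA turned to 0.079 by median of ratios.

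With a minimum of 50, 3 genes differed in response between NUP93-KO and NONT (9.01% of all tested genes). Off the median gene in untreated EXOSC5-KO were 6 genes with no minimum and 1 with no trend. Leaving out single libraries gave 75 to 87 lower genes in NONT, 7 to 21 in NUP93-KO and 7 to 41 in EXOSC5-KO, 0 to 78 differing in response from NONT in NUP93-KO, 0 to 65 doing so in EXOSC5-KO, and 0 to 2 off the median in untreated EXOSC5-KO. The medians ranged from −1.11 to −0.61, −0.25 to −0.08 and −0.37 to −0.30. A group left with 1 library was assumed to vary like the others. The causes were not tested.

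Centred on the library median, genes of libraries with the same replicate number did not deviate together (15 correlations of −0.05 to 0.04). A shift common to all genes of a library is removed by the centring, so that this check cannot tell whether libraries of one number were handled together. With the replicate block 86, 8 and 16 genes were lower in NONT, NUP93-KO and EXOSC5-KO, and 2 were off the median in untreated EXOSC5-KO.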
